A study of Rattus norvegicus with 19 samples.

Results

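The AP-1 and immediate early genes were followed in rat liver through 10 genes, Jun, Junb, Jund, Fos, Fosl1, Atf3, Egr1, Ier2, Ier3 and Dusp1. All probe sets annotated to exactly 1 of these genes were taken, which gave 16 of the 31256 probe sets on 2 Affymetrix array types. The first array type held 15 of them and the second held 1, a probe set for Jund. Adult rats were fasted overnight and injected once into the peritoneum with 100 mg/kg pregnenolone-16α-carbonitrile (PCN), a steroid agonist of the pregnane X receptor in rodents, or with corn oil alone. Whole liver was taken 8 h later, so every group, the controls included, had been fasted and injected. The labels give no strain, sex, age beyond adult, or genotype. Each group had 5 biological replicates on the first array type. The second had 5 PCN arrays and 4 corn oil arrays, since no such array of corn oil replicate 2 was analysed here. The study was set up to ask whether PCN activates genes outside drug metabolism that could counter stress. Values are log2 expression, 1 per probe set and array, and a level is compared only within a probe set.

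Immediate early genes are switched on within minutes of a stimulus, without new protein synthesis, and their RNAs decay quickly. AP-1 is a family of leucine zipper dimers built from Jun proteins, which pair with each other or with Fos proteins or ATF proteins, and it binds the AP-1 site or the related cyclic AMP response element (CRE). MAP kinases activate these factors, and feedback genes such as the phosphatase Dusp1 end the signal. In the liver the set is known for its rapid response to partial hepatectomy, cytokines, growth factors and fasting hormones.

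The arrays were checked before the comparison. On the first array type corn oil replicate 2 stood apart: its control probe sets for the 3′ and 5′ ends of Gapdh differed by 2.02 on the log2 scale and those for actin by 2.28, against 0.56 to 0.87 and 0.34 to 0.56 on the other 18 arrays. Results are therefore also given without it. Of 7 genes known to respond to PCN or to belong to drug metabolism 5 were called higher, among them Cyp3a18, a P450 enzyme, with a log2 fold change of 1.31 (adjusted p = 0.00384, limma). The liver label was borne out by albumin, the main secreted protein of hepatocytes, at 15.15 in corn oil and 15.14 after PCN near the top of the table's range, and by summed hepatocyte markers of 17.13 to 17.27 in corn oil and 17.14 to 17.32 after PCN. Across 8 lists of cell type markers limma called 0 of 55 genes, and 20.0% had an unadjusted p under 0.05, against 3.93% called and 20.6% under 0.05 among all 11118 genes tested. The groups did not overlap for 2 of the markers (7.25% of all genes), Col3a1, a fibrillar collagen, at 0.43 (adjusted p = 0.0824, limma) and Cd8a, a T cell marker named after its value was seen, at -0.15 (adjusted p = 0.147). In whole tissue a smaller number of cells of a type and less RNA per cell cannot be told apart.

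RefSeq promoters of the rat assembly GRCr8 were available for 6 of the 10 genes (Fosl1, Dusp1, Jund, Egr1, Junb and Ier2). The 250 bases before the start site were searched on both strands. The full CRE, TGACGTCA, was present in 3 of the 6, against 1.59% of all 33469 promoters searched in the same way. These 3 stretches of 60 bases are printed because they share this element. Capitals mark the CRE, which starts at positions -124, -66 and -221 from the start site in Dusp1, Ier2 and Jund.
Dusp1, chr10:17184703-17184762, plus strand: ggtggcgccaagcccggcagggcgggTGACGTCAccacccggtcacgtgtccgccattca
Ier2, chr19:40399281-40399340, plus strand: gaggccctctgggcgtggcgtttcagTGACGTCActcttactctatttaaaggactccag
Jund, chr16:18769959-18770018, minus strand: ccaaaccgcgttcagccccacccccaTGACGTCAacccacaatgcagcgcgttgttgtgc
The AP-1 site TGANTCA, which a CRE does not contain, was in 0 of the 6 and in 6.34% of all promoters. Egr1 carried a pair of CArG boxes, the binding element of serum response factor, at positions -105 and -83 (1.5% of promoters have at least 1). Jund held the EGR site GCGTGGGCG at position -76 (0.478% of promoters). These matches describe the letters of the window and not binding.

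Jun was higher and Ier2 lower after PCN, and no other gene followed here passed the test. Both were measured on the first array type, where treatment largely coincided with 2 unlabelled sets of arrays, described below. For Jun and Ier2, treatment is therefore poorly separated from those sets of arrays. On the first array type 11 probe sets of 8 genes could be tested, of which 3 were higher after PCN and 1 was lower at an adjusted p under 0.05 (limma). Among all 11106 probe sets tested there 3.25% were called, 2.31% higher and 0.945% lower. At an unadjusted p under 0.05 the count was 5 of the 11, Egr1 included, against 17.7% of all probe sets. The 3 that rose all belong to Jun, so they are 1 gene and not 3 separate results. The single probe set tested on the second array type, for Jund, was not called, where 5.4% of all tested probe sets were called, 3.76% higher and 1.64% lower. Its unadjusted p was under 0.05, as for 27.3% of the probe sets there. Of all calls 70.9% were higher on the first array type (57.9% after quantile normalization) and 69.7% on the second (45.4% after scaling to a trimmed mean), and no AP-1 or immediate early probe set changed direction under these scalings. The groups did not overlap for 2 Jun probe sets and Ier2 on the first array type (3.99% of all probe sets were apart with PCN higher and 2.05% with PCN lower), nor for Jund on the second (5.06% with PCN higher). Another 4 probe sets, 2 for Jund, 1 for Fos and 1 for Atf3, lay under the limit on dim signals and are given as values alone.

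**Figure D1:**
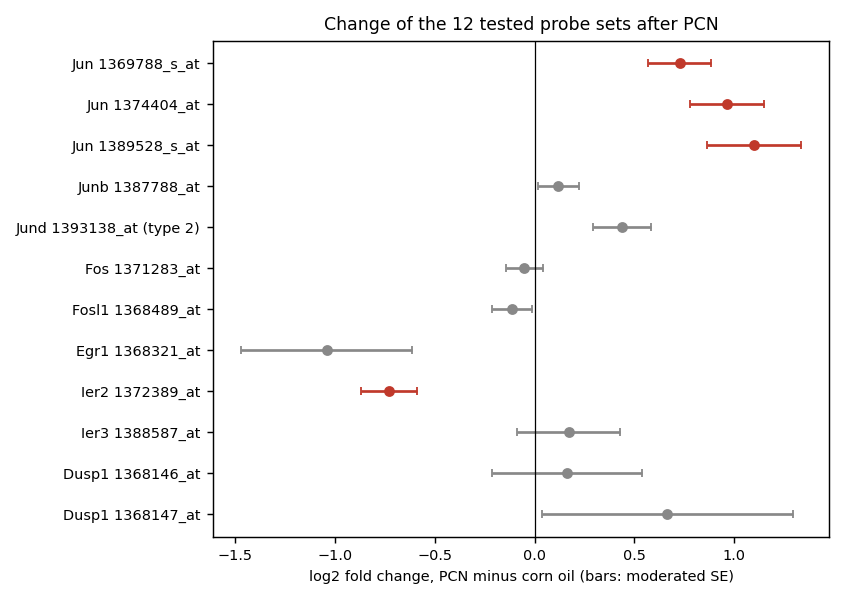
Log2 fold change after PCN (x axis, PCN minus corn oil) of the 12 tested probe sets, with bars of 1 moderated standard error and red marking an adjusted p under 0.05; type 2 is the second array type. The 3 Jun probe sets lie between 0.73 and 1.10 and Ier2 at -0.73, while Egr1 at -1.04 and Dusp1 have the widest bars.

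Jun encodes c-Jun, a strongly activating AP-1 subunit that can induce its own gene. Its probe set 1374404_at read 7.84, 7.30, 7.41, 7.67 and 8.24 in corn oil replicates 1 to 5 and 8.81, 8.33, 8.35, 9.01 and 8.77 in PCN replicates 1 to 5. All 5 PCN livers were above all 5 controls, though corn oil replicate 5, the highest control, came close to PCN replicates 2 and 3. The means were 7.69 ± 0.37 and 8.66 ± 0.30 (SD, n = 5 each), a 1.95-fold rise (log2 fold change 0.96 ± 0.18 SE, adjusted p = 0.0168, limma). This call was kept when each of the 10 arrays was left out in turn, with adjusted p values from 0.0072 to 0.049. It was lost with unmoderated variances and with the term for the unlabelled sets of arrays, at an adjusted p of up to 0.0931.

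Probe set 1389528_s_at of Jun read 8.14, 8.28, 8.25, 8.54 and 9.57 in corn oil and 9.52, 9.70, 9.50, 9.99 and 9.57 after PCN. Here 4 controls lay clearly below every PCN liver, while corn oil replicate 5 lay within the PCN range, so the groups overlapped through that animal alone. The difference of the means, 8.56 ± 0.58 against 9.66 ± 0.20 (SD, n = 5 each), was 2.14-fold (1.10 ± 0.24 SE, adjusted p = 0.0286, limma). With corn oil replicate 5 left out the log2 fold change was 1.35 (adjusted p = 0.000632, limma).

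Probe set 1369788_s_at of Jun read 8.44, 8.61, 8.37, 8.49 and 9.14 in corn oil and 9.29, 9.23, 9.16, 9.76 and 9.24 after PCN. The groups again did not overlap, and the gap between corn oil replicate 5 and the lowest PCN liver was small. The rise was 1.65-fold, from 8.61 ± 0.31 to 9.34 ± 0.24 (SD, n = 5 each; 0.73 ± 0.16 SE, adjusted p = 0.0304, limma). Corn oil replicate 5 was the highest control and PCN replicate 4 the highest PCN liver on all 3 Jun probe sets. When corn oil replicate 2 was left out the log2 fold changes were 0.73, 0.86 and 1.03 for 1369788_s_at, 1374404_at and 1389528_s_at, and all 3 calls were kept (adjusted p from 0.0245 to 0.0443, limma). The calls of 1369788_s_at and 1389528_s_at were lost without corn oil replicate 1, 3 or 4 or PCN replicate 1, 3, 4 or 5, with adjusted p values of 0.0523 to 0.0844 for the former and 0.0519 to 0.0766 for the latter. Their log2 fold changes stayed between 0.62 and 0.77 and between 0.998 and 1.14 in those fits.

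**Figure D2:**
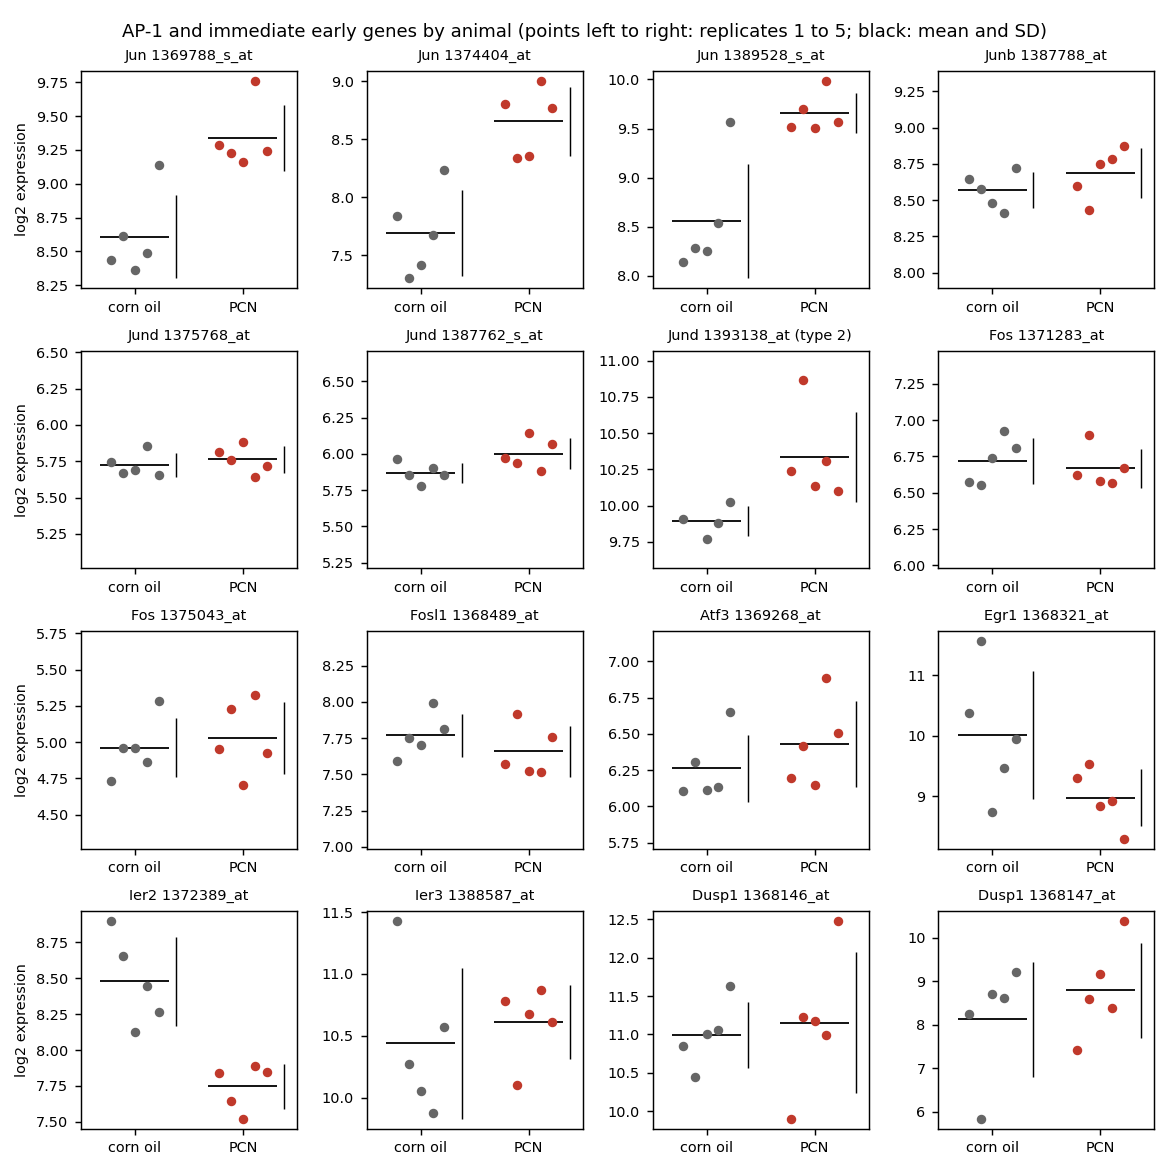
Log2 expression (y axes, scaled for each probe set) of all 16 probe sets in each liver, grey for corn oil and red for PCN, replicates 1 to 5 from left to right (type 2, the second array type, has no corn oil replicate 2), with the mean as a horizontal and the SD as a vertical black line. PCN livers lie above the controls for 2 of the 3 Jun probe sets and for Jund 1393138_at, all lie below them for Ier2, and the widest scatter within a group is that of Dusp1 1368147_at.

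Junb, an AP-1 subunit that often restrains c-Jun, was not called. Its probe set 1387788_at read 8.65, 8.57, 8.48, 8.41 and 8.72 in corn oil and 8.60, 8.43, 8.75, 8.78 and 8.87 after PCN. The groups overlapped over most of their range, and the log2 fold change was 0.12 ± 0.10 SE (adjusted p = 0.589, limma).

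Jund encodes the constitutive Jun protein, and its readout differed between probe sets. On the second array type 1393138_at read 9.90, 9.77, 9.88 and 10.02 in corn oil replicates 1, 3, 4 and 5 and 10.24, 10.87, 10.14, 10.31 and 10.10 in PCN replicates 1 to 5. All PCN livers were above all controls, and PCN replicate 2 stood well above the other 4. The means were 9.89 ± 0.11 (SD, n = 4) and 10.33 ± 0.31 (SD, n = 5), and their difference of 0.44 ± 0.15 SE was not called (adjusted p = 0.091, limma). The brightest 10% of all probe sets on this array type, to which 1393138_at belongs, had a median log2 fold change of 0.20 as deposited. After quantile normalization that median was 0.00 and the Jund value was 0.18 (adjusted p = 0.417), and after cyclic loess Jund was at 0.21 (adjusted p = 0.388). Array weights gave the only call, at 0.49 (adjusted p = 0.0427). Over all settings its adjusted p ran from 0.0427 to 0.417. The 2 dim probe sets on the first array type read 5.66 to 5.86 in corn oil and 5.64 to 5.88 after PCN for 1375768_at, and 5.78 to 5.97 and 5.88 to 6.15 for 1387762_s_at. Both pairs of ranges overlapped.

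The genes of the Fos proteins, the usual partners of c-Jun, were not called. Probe set 1371283_at of Fos, the prototype immediate early gene, read 6.57, 6.55, 6.74, 6.92 and 6.81 in corn oil and 6.62, 6.90, 6.58, 6.57 and 6.67 after PCN. These ranges were nearly the same, and the log2 fold change was -0.05 ± 0.09 SE (adjusted p = 0.811, limma). Its mean lay just above the limit of 6.67 on dim signals, and the other Fos probe set, 1375043_at, lay far below it, at 4.74 to 5.28 in corn oil and 4.71 to 5.32 after PCN.

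Fosl1, which encodes the Fos family member Fra-1, read 7.59, 7.75, 7.70, 7.99 and 7.81 in corn oil and 7.57, 7.92, 7.53, 7.52 and 7.76 after PCN on 1368489_at. The groups overlapped, with a log2 fold change of -0.11 ± 0.10 SE (adjusted p = 0.611, limma). Atf3, a stress-induced bZIP factor that can pair with Jun proteins, had only the dim probe set 1369268_at. It read 6.11, 6.30, 6.11, 6.14 and 6.65 in corn oil and 6.19, 6.42, 6.15, 6.89 and 6.51 after PCN. The highest values were those of PCN replicate 4 and corn oil replicate 5, the livers that also led their groups for Jun. The dim Fos probe set 1375043_at was highest in the same livers, at 5.32 and 5.28. Whether Atf3 and Jun vary together was not tested. With no limit on dim signals the log2 fold change of Atf3 was 0.17 ± 0.14 SE (adjusted p = 0.642, limma).

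Ier2, a small nuclear protein gene induced by growth factors, fell. Probe set 1372389_at read 8.90, 8.65, 8.13, 8.45 and 8.26 in corn oil and 7.84, 7.65, 7.52, 7.89 and 7.84 after PCN. All 5 PCN livers were below all 5 controls and lay closer together than the controls did. The level went from 8.48 ± 0.31 to 7.75 ± 0.16 (SD, n = 5 each), a difference of 1.66-fold (-0.73 ± 0.14 SE on the log2 scale, adjusted p = 0.0171, limma). The call was kept without each array in turn (adjusted p from 0.0133 to 0.0491), and without corn oil replicate 2 the value was -0.68 (adjusted p = 0.0272).

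Egr1, a zinc finger factor and one of the most rapidly induced genes of the growth factor response, had a lower mean after PCN that did not pass the test. Probe set 1368321_at read 10.37, 11.57, 8.74, 9.46 and 9.94 in corn oil and 9.30, 9.53, 8.84, 8.92 and 8.29 after PCN. The controls ranged over 7.14-fold and the PCN livers over 2.36-fold, and the groups overlapped because corn oil replicates 3 and 4 were among the PCN values. The log2 fold change of -1.04 ± 0.43 SE had an adjusted p of 0.230 (limma). Corn oil replicate 2 gave the highest value, and without it the log2 fold change was -0.65 (adjusted p = 0.272), a change in size of over 1.5 times.

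Ier3, a stress-induced gene linked to cell survival, read 11.43, 10.27, 10.05, 9.88 and 10.57 in corn oil and 10.78, 10.10, 10.68, 10.87 and 10.61 after PCN on 1388587_at. Corn oil replicate 1 was the highest of all 10 livers, and the other 4 controls lay mostly below the PCN livers. The log2 fold change was 0.17 ± 0.26 SE (adjusted p = 0.773, limma). With single arrays left out it ran from 0.03 to 0.42, at 0.42 (adjusted p = 0.241) when corn oil replicate 1 was left out and 0.03 (adjusted p = 0.976) when corn oil replicate 4 was.

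Dusp1, the phosphatase that inactivates MAP kinases in the nucleus and a known target of glucocorticoids, varied more between animals than between treatments. Probe set 1368146_at read 10.85, 10.44, 11.00, 11.05 and 11.63 in corn oil and 9.90, 11.23, 11.17, 10.99 and 12.48 after PCN. The highest and the lowest of the 10 livers were both PCN livers, replicates 5 and 1. Probe set 1368147_at read 8.25, 5.84, 8.71, 8.63 and 9.21 in corn oil and 7.43, 8.59, 9.16, 8.39 and 10.39 after PCN. PCN replicate 5 was again highest, and corn oil replicate 2 was far below every other liver. The log2 fold changes were 0.16 ± 0.37 SE (adjusted p = 0.856) and 0.67 ± 0.63 SE (adjusted p = 0.628, limma). Leaving out corn oil replicate 2 gave 0.02 and 0.09, and leaving out PCN replicate 5 gave -0.17 for 1368146_at.

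The spread between animals differed widely among these genes. The SD pooled over both groups was 1.21 for Dusp1 1368147_at, 0.82 for Egr1 and 0.72 for Dusp1 1368146_at on the log2 scale, larger than that of 99.7%, 99.1% and 98.7% of tested probe sets on the first array type. The median over all tested probe sets was 0.17. Ier3 at 0.48 and the Jun probe sets 1389528_s_at at 0.44 and 1374404_at at 0.34 also exceeded 90% of them. Fos, Junb and Fosl1, at 0.15, 0.15 and 0.16, were below the median. When corn oil replicate 2 was left out Fos stayed below it, while Junb and Fosl1 exceeded the SD of 51.0% and 57.3% of the probe sets. The mean of Fos lay just above the limit on dim signals, and SDs were not compared at like brightness. In corn oil Dusp1 1368147_at ranged over 10.4-fold and after PCN over 7.81-fold, and 1368146_at ranged over 2.27-fold and 5.99-fold. Deviations of probe sets of the same gene correlated at 0.84 for Dusp1 and 0.68 to 0.88 for Jun, so these are not separate results. Of the 11 tested probe sets 6, all of Dusp1, Jun, Egr1 or Ier3, exceeded 90% of all probe sets in SD. The count was 7, of the same genes, when corn oil replicate 2 was left out. With it left out the SD was 0.86 and 0.73 for the Dusp1 probe sets and 0.58 for Egr1. Jund 1393138_at on the second array type had an SD of 0.24, above 91.6% of the probe sets there.

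**Figure D3:**
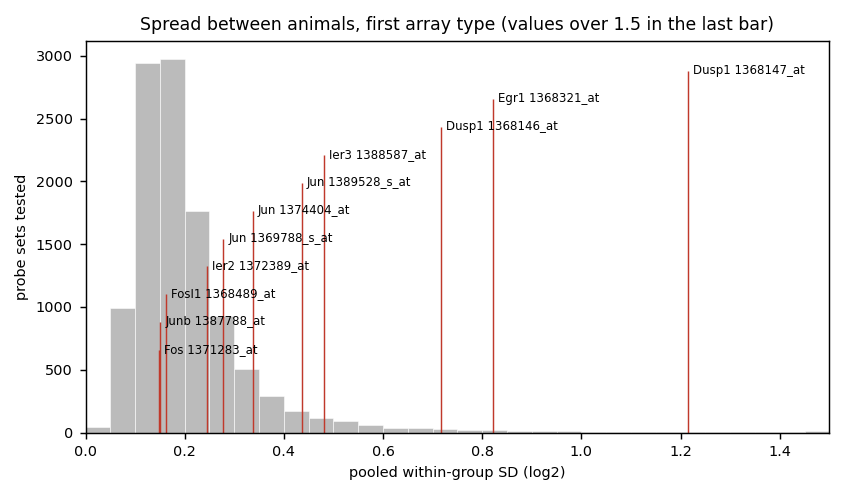
Number of tested probe sets of the first array type (y axis) by the SD between animals pooled over both groups (x axis, log2 scale), with a red line at the value of each AP-1 and immediate early probe set; the height of a line has no meaning. Dusp1 and Egr1 lie in the far tail between 0.72 and 1.21, whereas Fos, Junb and Fosl1 lie near the peak at 0.15 to 0.16.

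No pair of genes passed the test for varying together between livers. Deviations from the group means were correlated for all 28 pairs of 8 genes over the 10 arrays of the first type, with permutation within groups (100000 resamples, two-sided). None of the 28 passed after Benjamini-Hochberg adjustment by either measure, and 4 had an unadjusted Pearson p under 0.05. Fos and Fosl1 came closest (r = 0.877, permutation p = 0.00235, adjusted p = 0.0658; rho = 0.770, permutation p = 0.00947, adjusted p = 0.133). Without corn oil replicate 4 and PCN replicate 2, the arrays farthest from the median of Fos, r was 0.603. Left without corn oil replicate 2, this pair gave r = 0.960 and rho = 0.983 (permutation, adjusted p = 0.00952 for each), and r = 0.868 without the 2 farthest arrays. Fos then read 6.57 to 6.67 in corn oil replicate 1 and PCN replicates 1, 3, 4 and 5. In corn oil replicates 3, 4 and 5 and PCN replicate 2 it read 6.74 to 6.92. These are 2 unlabelled sets of arrays described earlier in these data. For this pair, and for Fosl1 and Ier3, variation between livers and between those sets cannot be told apart. Fosl1 and Ier3 varied oppositely with r = -0.738 and rho = -0.818, a relation that did not pass adjustment (permutation, adjusted p = 0.162 and 0.133; r = -0.654 without the 2 arrays farthest from the median of Fosl1). Dusp1 and Egr1, the genes with the largest spread, had r = -0.480 and rho = -0.467 (permutation, adjusted p = 0.398 and 0.429; r = -0.494 without the 2 farthest).

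In the wider AP-1 family no gene was called. The following lists were chosen with earlier results of these data known. Each gene was represented by its brightest tested probe set on the first array type, or on the second where none was tested on the first. Over all 11118 genes tested in this way 320 rose and 117 fell, or 3.93%. Of these genes 20.6% had an unadjusted p under 0.05 and 48.4% a log2 fold change above 0, with a median of -0.01. Of 20 other AP-1 and bZIP factors limma called 0, 7 had an unadjusted p under 0.05 and 14, or 70.0%, were above 0, with a median of 0.17. Nearest to the threshold were Maf, a large Maf factor, at -0.40 (adjusted p = 0.053) and Creb3, a membrane-bound bZIP factor, at 0.41 (adjusted p = 0.0591). Their adjusted p ran from 0.0158 to 0.237 and from 0.0146 to 0.306 over all settings, so that both were called in some of them.

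Of 47 other immediate early genes 3 rose and limma called 0 lower (6.38% called, against 3.93% of all genes), with a median of 0.00. An unadjusted p under 0.05 was found for 17 of them (36.2%, limma), against 20.6% of all genes, and 24 (51.1%) were above 0. Gadd45b, a growth arrest and stress gene that acts on MAP kinase signalling, rose from 7.76 ± 0.60 to 10.68 ± 0.47 (SD, n = 5 each), a log2 fold change of 2.92 ± 0.29 SE (adjusted p = 0.000375, limma). Rhob, an immediate early small GTPase, rose by 1.02 ± 0.21 SE (adjusted p = 0.0227) and Btg3, an antiproliferative gene, by 0.64 ± 0.15 SE (adjusted p = 0.0448, limma). The call of Rhob was lost without corn oil replicate 3 or 4 or PCN replicate 3 (adjusted p from 0.0538 to 0.0582), and that of Btg3 without any single array other than corn oil replicate 2 (0.0549 to 0.117). Other settings lost these calls too, and over all settings Rhob was called in 19 of 24 (adjusted p up to 0.0895) and Btg3 in 8 of 23 (up to 0.127).

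**Figure D4:**
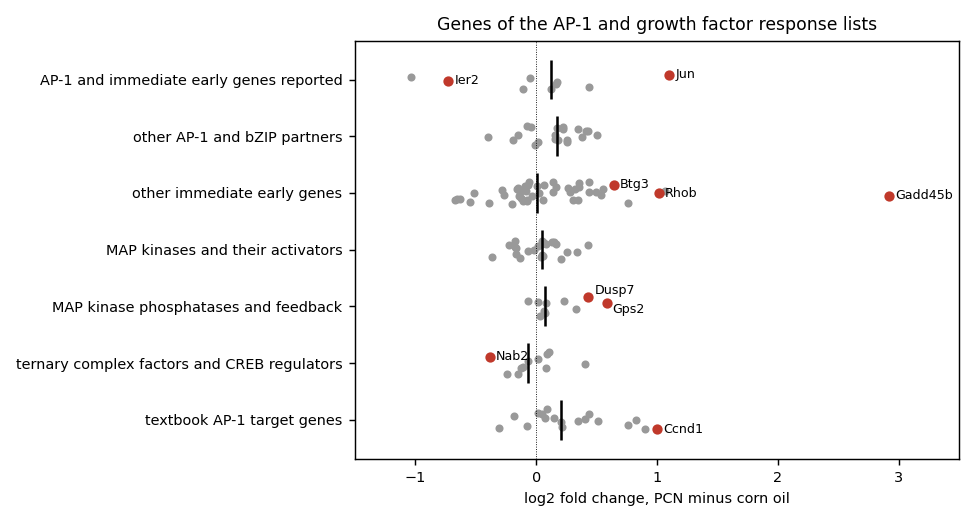
Log2 fold change after PCN (x axis) of each tested gene in 7 lists, with red points for an adjusted p under 0.05, black bars for the list's median and random vertical scatter for legibility. The 9 AP-1 and immediate early genes reported spread from -1.04 for Egr1 to 1.10 for Jun, and the largest change of all lists is Gadd45b at 2.92.

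Upstream of AP-1, limma called 0 of 24 MAP kinases and their activators (5 had an unadjusted p under 0.05, or 20.8% against 20.6% of all genes), with a median of 0.05. The kinases closest to the threshold were Map3k4 on the second array type at 0.26 (adjusted p = 0.0714) and Mapkapk3, a kinase downstream of p38, at -0.37 (adjusted p = 0.128). Over all settings their adjusted p ran from 0.0321 to 0.165 and from 0.046 to 0.530, so that these too were called in some of them. Of 10 other phosphatases and feedback genes 2 rose, both on the second array type, with a list median of 0.08. Gps2, a subunit of a corepressor complex known to dampen JNK signalling, rose from 7.52 ± 0.25 (SD, n = 4) to 8.10 ± 0.15 (SD, n = 5; adjusted p = 0.0219, limma). Dusp7, a phosphatase of ERK, rose by 0.43 ± 0.10 SE (adjusted p = 0.0317, limma). The call of Gps2 was lost without corn oil replicate 4 or PCN replicate 1 (adjusted p = 0.0691 and 0.0543) and that of Dusp7 without any single array other than PCN replicate 5 (0.0596 to 0.0931). Over all settings Gps2 was called in 18 of 22 (adjusted p up to 0.0923) and Dusp7 in 11 of 21 (up to 0.115).

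Among 11 ternary complex factors and CREB regulators 1 was called, also the only gene with an unadjusted p under 0.05 (9.09%, limma). Over all genes 3.93% were called and 20.6% had an unadjusted p under 0.05. Nab2, the corepressor of EGR proteins and itself an EGR target, fell from 7.40 ± 0.14 to 7.01 ± 0.10 (SD, n = 5 each; log2 fold change -0.38 ± 0.08 SE, adjusted p = 0.0303, limma). Its groups did not overlap, and the call was lost without corn oil replicate 4 or 5 or PCN replicate 3, 4 or 5 (adjusted p from 0.0639 to 0.0766). Over all settings Nab2 was called in 15 of 23 (adjusted p up to 0.109). Of 18 textbook AP-1 targets, a list that includes Jund, 1 rose (5.56% called, against 3.93% of all genes) and the median was 0.21. In this list 6, or 33.3%, had an unadjusted p under 0.05 (limma) and 15, or 83.3%, were above 0. For all genes these shares were 20.6% and 48.4%. As the list was chosen with earlier results of these data known, the shares describe its genes and are not a test of AP-1 activity. The gene that rose was Ccnd1, encoding cyclin D1, with a log2 fold change of 0.996 ± 0.22 SE (adjusted p = 0.031, limma). The call of Ccnd1 was lost without corn oil replicate 1, 3 or 4 or PCN replicate 1, 3, 4 or 5 (adjusted p from 0.0546 to 0.0877). Over all settings it was kept in 14 of 24 (adjusted p up to 0.112).

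Marker genes of other liver cells were set beside the calls. The summed Kupffer cell and macrophage markers ran from 13.76 to 14.04 in corn oil and from 13.68 to 14.32 after PCN, neutrophil markers from 9.21 to 9.70 and from 9.37 to 9.92, and stellate cell and fibroblast markers from 12.42 to 12.98 and from 12.86 to 13.24. Endothelial markers ran from 12.24 to 12.73 and from 12.23 to 12.50, red cell markers from 14.11 to 14.46 and from 13.63 to 14.29, lymphocyte markers from 10.32 to 10.76 and from 10.37 to 10.71, and cholangiocyte markers from 9.33 to 9.83 and from 9.44 to 9.61. All 7 pairs of ranges overlapped. The sums add linear levels from the first array type alone, so bright genes weigh most. Gene by gene over both types, 0 of 4 red cell markers had a log2 fold change above 0 and 2 an unadjusted p under 0.05 (limma). For lymphocyte markers these counts were 2 and 4 of 8. Macrophage markers had 8 and 1 of 10, and stellate cell markers 7 and 2 of 10. Endothelial markers had 4 and 0 of 8, cholangiocyte markers 1 and 0 of 3, and neutrophil markers 2 and 1 of 3. Corn oil replicate 2 set the highest corn oil value for the stellate cell, endothelial and cholangiocyte lists and the lowest for the hepatocyte and lymphocyte lists. Left without it, the stellate cell list ran from 12.42 to 12.86 in corn oil, level with the lowest PCN liver at 12.86, and the endothelial and cholangiocyte maxima were 12.50 and 9.60. The part of these lists in the Jun and Ier2 values was not tested.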

How the data were processed

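RNA from rat liver was measured on 2 Affymetrix array types, 10 and 9 arrays. The authors deposited 1 log2 expression value per probe set and array, with MAS5 named in the submitters' processing notes without a version. Summarization and scaling are not given in the sources used here, and base 2 was inferred from the range of the values (4.31 to 15.2 and 3.10 to 14.1). Probe sets were assigned to genes by GEO's platform annotation, with identifiers matched to RefSeq GRCr8 for 12754 of 12789 single-gene probe sets of the first type.

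Values were used as deposited, each table alone. Control probe sets (57 per type) and probe sets with a mean under the 30th percentile (6.67 and 5.51) were left out, leaving 11106 and 10693. Treatment was tested with limma 3.58.1 in R 4.3.3 (linear model, moderated variances with an intensity trend, two-sided, Benjamini-Hochberg over each table, threshold 0.05), checked on simulated data. Pairs of genes were compared by permutation within groups. The number of arrays limits the precision. All probe sets of the 10 genes were named, and of each other list up to 4 called genes of largest change, or the 2 of smallest p. Genes and lists were chosen with earlier results of these data known.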

Additional observations from a re-analysis of the deposited data

Results flagged for a closer look

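In 6 of 62 groups of arrays examined, a single array lay far from the others for its probe set, and chance alone gives this in about 1 group in 20. Among the AP-1 and immediate early genes, Jun 1369788_s_at had PCN replicate 4 highest at 9.76 with the next PCN array at 9.29. Jun 1389528_s_at had corn oil replicate 5 highest at 9.57 with the next control at 8.54, the value through which the groups overlapped. Dusp1 1368147_at had corn oil replicate 2 lowest at 5.84 with the next control at 8.25. Jund 1393138_at on the second array type had PCN replicate 2 highest at 10.87 with the next PCN array at 10.31. Of the genes used to check the treatment, Abcb1a, a drug efflux pump, had PCN replicate 2 highest at 9.89 (next 9.43), and Por, the electron donor of P450 enzymes, had PCN replicate 5 lowest at 12.35 (next 12.71).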

How the results depend on the processing

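The 4 probe sets called on the first array type were 4 as well under 2 other filters, 4 other scalings, pseudocounts of 16 and 64, variances without a trend or robust, and array weights. With unmoderated variances 0 were called, and with a term for 2 unlabelled sets of arrays described earlier in these data, corn oil replicate 2 being left out, 2 were called (Jun 1389528_s_at and Ier2). Corn oil replicate 1 and PCN replicates 1, 3, 4 and 5 formed 1 set. Corn oil replicates 3, 4 and 5 and PCN replicate 2 formed the other. Set and treatment thus largely coincided, so that fit separates them poorly. Leaving out single arrays gave 2 to 4 calls. With the replicate number as a block 3 remained, Jun 1369788_s_at being lost (adjusted p = 0.0615, limma). Deviations from the group means of same-numbered PCN and corn oil arrays correlated at -0.30 to 0.28 on the first type and at 0.02 to 0.20 on the second, so the numbers were not taken as pairs. On the second type array weights called 1 probe set, Jund, in place of 0, and the replicate block called 0. Without corn oil replicate 2, 1 pair of genes, Fos and Fosl1, varied together in place of 0, and Fos also differed between those 2 sets of arrays.

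Directions turned only for uncalled genes: Dusp1 1368146_at was -0.13 with array weights and -0.17 to 0.48 with single arrays left out. With the term for 2 sets of arrays Fos was 0.055, Fosl1 0.040 and Ier3 -0.39. The cause was not tested. Over all probe sets, the first type gave 77 to 768 higher and 27 to 283 lower (256 and 105 as reported), and the second 25 to 905 and 15 to 607 (402 and 175). The share higher was 70.9% as deposited and 57.9% to 67.3% under other scalings on the first type, and 69.7% and 45.4% to 87.8% on the second.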
